A study of Rattus norvegicus with 6 samples.

Results

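Semaphorins, plexins and neuropilins form a ligand and receptor family of cell guidance, and 31 genes of it were read here. They are the protein-coding gene models whose symbols name a semaphorin of class 3 to 7, a plexin of type A, B, C or D, or Nrp1 or Nrp2, out of 33350 gene models in the deposited table. The 31 comprise 20 semaphorins, 9 plexins and 2 neuropilins. The 6 RNA-seq libraries are all labelled PC12, a rat line of neuroendocrine tumour origin that is used to study neurite growth. In the EN group (3 libraries) the cells had been given exosomes from endothelial cells with high expression of the guidance protein netrin-1 (NTN1). In the EC group (3 libraries) they had been given exosomes from control endothelial cells. Both groups thus received endothelial exosomes, and no library of untreated cells was analysed here. How NTN1 was raised, and the dose and time of exposure, are not stated in the labels.

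Semaphorins are secreted or membrane-bound proteins that steer growing axons and migrating cells, mostly by repulsion. Plexins are their signalling receptors, with a cytoplasmic domain that switches off Ras-type GTPases, and neuropilins are co-receptors that secreted class 3 semaphorins need in order to act through A-type plexins. In peripheral nerve, Sema3A is best known for collapsing the growth cones of sensory and sympathetic axons through neuropilin-1. The roles given below are known mainly from mouse and human proteins. In the domain column of the deposited table, 28 of the 31 members are listed under the Sema domain, which ligands and plexins share. The others are Nrp1 under CUB, Nrp2 under F5_F8_type_C and Plxnc1 under TIG.

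Expression was given as FPKM, read numbers scaled by gene length and by library size, so that levels can be set side by side between genes. Whole reads worked back from it came to 16654025 to 19626012 in the EN libraries and 15296193 to 16165804 in the EC libraries. Every EN library was deeper than every EC library, a difference that FPKM scales for. Separate cultures for the replicates are not mentioned in the labels, and p-values therefore reflect only the spread among these libraries, which could be technical. The markers of the labelled cell type were low, since 2 of 13 chromaffin genes averaged at least 1 FPKM. Hand2 had no read, which allows at most 0.046 FPKM (3 reads over all 6 libraries). Summed chromaffin levels were 6.97 to 7.14 FPKM in EN and 6.90 to 8.08 in EC. Of 11 Schwann and glial genes in the table, 10 averaged at least 1 FPKM. The sum of the list was 420.4 to 452.9 FPKM in EN against 477.8 to 486.6 in EC. Of the 10 tested, 6 were lower and 1 higher (70% past the test given below, against 14.4% of all genes tested). Endothelial markers, checked because the exosomes came from endothelial cells, summed to 3.22 to 3.75 FPKM in EN and 3.19 to 4.10 in EC. Of the 9 in the table, 2 averaged at least 1 FPKM, while Kdr had 1 read and Cldn5 none. The sums were 72.4 to 75.6 FPKM in EN and 74.2 to 77.5 in EC for fibroblast markers, mostly Pdgfra, and 34.9 to 36.3 in EN and 36.9 to 39.9 in EC for macrophage markers, mostly Cd14. Schwann and macrophage sums did not overlap between the groups, and their part in the members' results was not tested. Among single genes, 37.9% of all tested did not overlap either. Of 8 macrophage genes, 2 averaged at least 1 FPKM. In bulk libraries, fewer cells of a type and less RNA per cell cannot be told apart.

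The family was expressed unevenly. Of the 31 members, 20 had a mean of at least 1 FPKM over the 6 libraries, 10 of at least 10 FPKM, and 8 of under 0.1 FPKM. The highest was Sema3c, a secreted class 3 ligand that acts through both neuropilins, at a mean of 147.9 FPKM, above 97.9% of protein-coding gene models. Next came Nrp2, the co-receptor preferred by Sema3F, at 133 FPKM, Plxnb2, the plexin receptor for class 4 ligands such as Sema4C, at 76.7 FPKM, and Sema3a at 70.3 FPKM. Sema6a, a membrane-bound class 6 ligand that binds A-type plexins directly, averaged 50.02 FPKM, and Nrp1, the co-receptor that binds Sema3A and VEGF-A, 35.7 FPKM. Sema7a, a lipid-anchored ligand that signals through integrins as well as Plxnc1, averaged 30.4 FPKM, Plxna1, a signalling partner of the neuropilins, 27.8, Sema4c 21.7 and Sema3b 13.2.

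Some members that follow each other along a chromosome were far apart in level. On chromosome 4 of the Rnor_6.0 build, which the deposited coordinates follow, Sema3c, Sema3e, Sema3a and Sema3d lie in this order between positions 14318274 and 19413484. Their mean levels were 147.9, 0.0021, 70.3 and 0.029 FPKM, so high members and members with almost no reads alternated. Only family members are placed in this order, and genes between them were not examined. Sema3e lies 2.78 Mb from Sema3c and 0.584 Mb from Sema3a, and had 1 read in all libraries together. On chromosome 8, Sema3b and Sema3f are 76.4 kb apart and averaged 13.2 and 2.75 FPKM. On chromosome X, Plxna3 and Plxnb3 are 636 kb apart and averaged 8.77 and 1.10 FPKM.

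**Figure D1:**
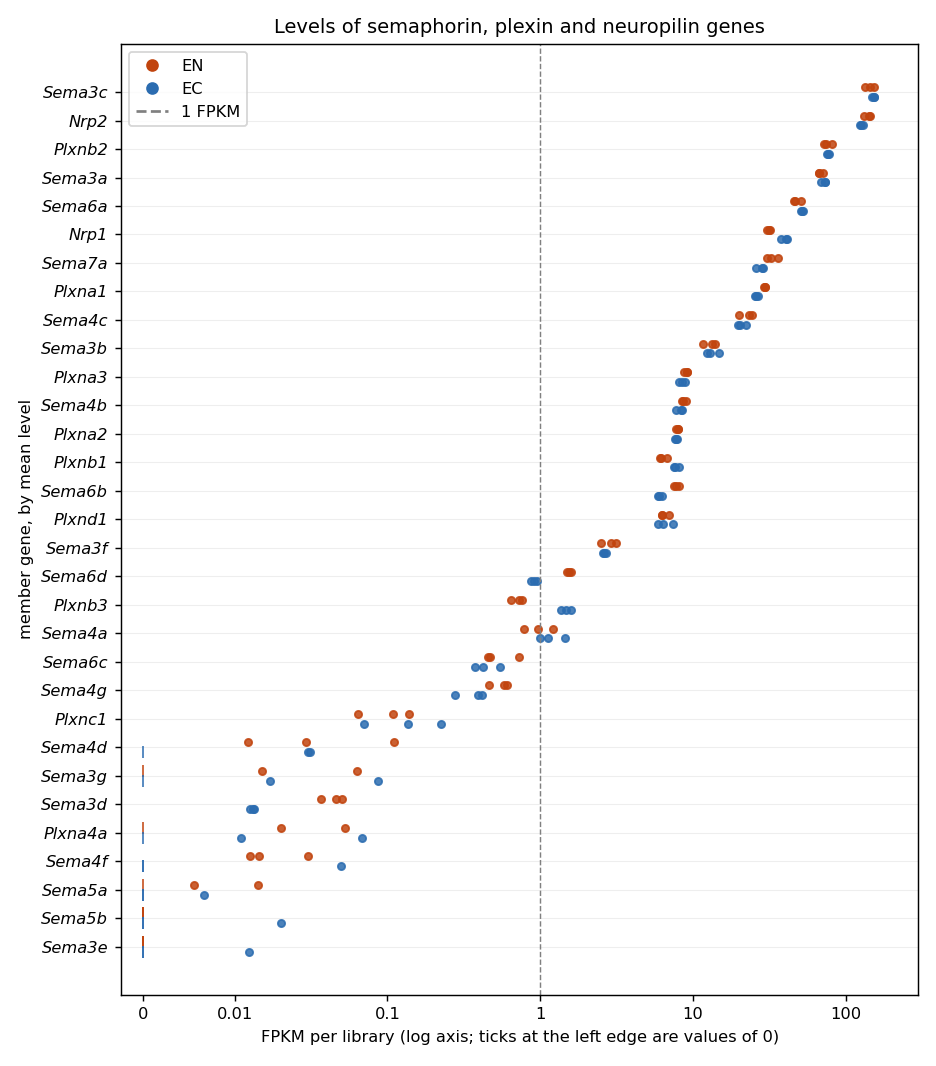
FPKM of the 31 member genes in each of 3 EN and 3 EC libraries, on a log axis, ordered by mean level, with values of 0 as ticks at the left edge and a dashed line at 1 FPKM. Sema3c and Nrp2 average above 100 FPKM in both groups, and 8 members, from Sema4d down to Sema3e, average under 0.1 FPKM.

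EN was set against EC to ask how these guidance genes differed when the exosome donors had high NTN1. Receptor genes moved in both directions. Nrp1 was 1.27-fold lower in mean FPKM, Plxnb1 1.22-fold lower and Plxnb3 2.08-fold lower in EN, while Plxna1 was 1.13-fold higher. Among ligands, the class 6 gene Sema6b was 1.28-fold higher. These 5 of 20 tested members passed the test (limma on log2(FPKM + 1), Benjamini-Hochberg adjusted p under 0.05 over all genes tested), 2 higher and 3 lower. The share of members was 25%, against 14.4% of all 12198 genes tested, of which 7.24% were higher and 7.14% lower. The median log2 change of the 20 was 0.01 (-0.0028 over all genes tested), and the median size of the change was 0.12, against 0.13. Of the 20, 3 (Plxnb3, Sema4a and Sema6d) met the minimum of 1 FPKM through 1 group alone. Among the 17 members that met it in both groups, 4 passed (23.5%, against 14.6% of the 11892 genes that met it in both), 2 higher and 2 lower. The other 11 members averaged under 1 FPKM and were not tested. How many passed differed with the library removed. The count was 1 on removing replicate 2 or 3 of EC, or replicate 1 or 2 of EN, with Nrp1 the remaining gene. On removing EC replicate 1 it was 2, and on removing EN replicate 3 it was 7. Over all genes tested, 1754 passed with every library in. On the removals that left 1 member, 338 to 446 passed, with 1616 without EC replicate 1 and 2059 without EN replicate 3.

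Over the family, the changes left the summed level alike, at 659.9 ± 7.34 FPKM in EN and 659.8 ± 2.96 in EC (SD, n = 3 each). The plexin sum was 136.6 ± 5.12 FPKM in EN and 135.3 ± 1.31 in EC, and the semaphorin sum 352.4 ± 7.33 FPKM in EN and 357.9 ± 1.53 in EC. Within plexins, the A type summed to 46.5 ± 0.447 FPKM in EN and 42.4 ± 0.735 in EC, and the B type to 83.5 ± 5.12 FPKM in EN and 86.2 ± 0.795 in EC. Only the A-type sums, of those named here, did not overlap between the groups, as did not 37.9% of all single genes tested. Of the A-type genes, Plxna1 averaged 29.5 FPKM in EN and 26.1 in EC without overlap, while the others overlapped. Sums were chosen after the values were seen and are given without a test.

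**Figure D2:**
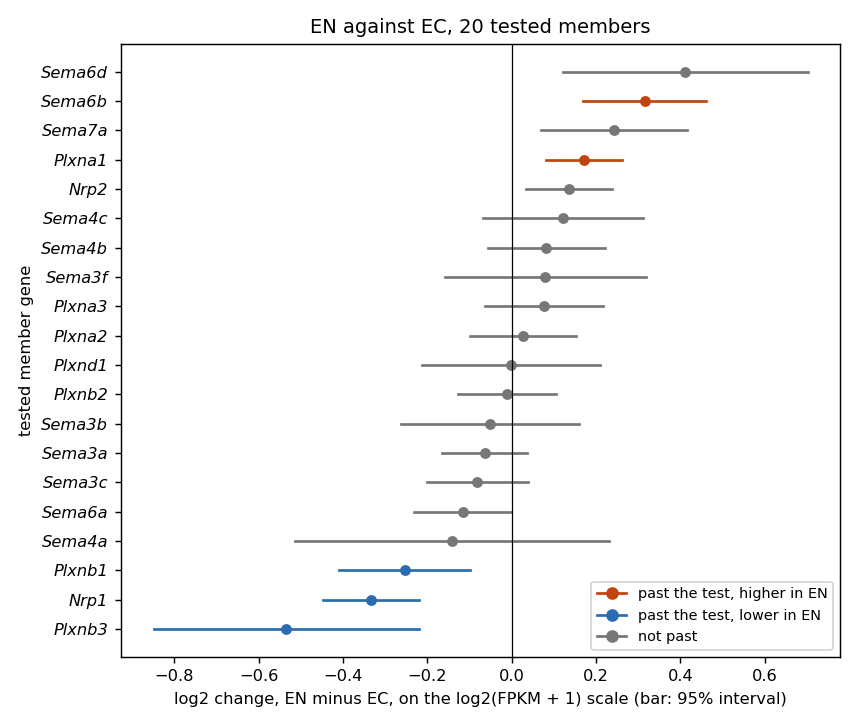
Log2 change of the 20 tested members, EN minus EC, on the log2(FPKM + 1) scale, with 95% intervals from limma, in order of size. Plxna1 and Sema6b are past the test and higher in EN, Nrp1, Plxnb1 and Plxnb3 are past it and lower, and the other 15 are grey.

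Of the neuropilins, Nrp1 was past the test and lower in EN, while Nrp2 did not pass. Nrp1 (ENSRNOG00000010744, chromosome 19, 61332351 to 61485858, plus strand) had 30.6, 31.6 and 32.1 FPKM in EN replicates 1 to 3, against 37.6, 41.5 and 40.6 FPKM in EC replicates 1 to 3. All EN libraries lay below all EC libraries. The log2 change was -0.33 (limma adjusted p = 0.010, SE 0.048). Of the 5 calls it was the only one to hold whichever library was removed (limma adjusted p at most 0.0498, on removing EC replicate 2). The gene model spans a miRNA model on its own strand. Nrp2 (ENSRNOG00000031232, chromosome 9, 69497121 to 69612087, plus strand) had 144, 141 and 133 FPKM in EN replicates 1 to 3, against 130.5, 123 and 126 FPKM in EC replicates 1 to 3. The groups did not overlap here either, EN being higher. Its log2 change of 0.14 (95% interval 0.03 to 0.24) did not pass (limma adjusted p = 0.078). With limma voom on the whole reads the adjusted p was 0.036. Within each library the ratio of Nrp2 to Nrp1 was 4.70, 4.48 and 4.14 in EN replicates 1 to 3 and 3.47, 2.98 and 3.11 in EC replicates 1 to 3. This ratio was chosen after the values were seen. Both levels are per length, so Nrp2 was the more abundant neuropilin transcript in every library.

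Plexin genes past the test were of the A and B types. Plxna1 (ENSRNOG00000017003, chromosome 4, 121217629 to 121257885, minus strand) had 29.6, 29.8 and 29.2 FPKM in EN replicates 1 to 3, against 25.6, 26.1 and 26.7 FPKM in EC replicates 1 to 3. EN was above EC without overlap, by 0.17 on the log2 scale (limma adjusted p = 0.031, SE 0.038). The adjusted p was 0.063 to 0.115 on removing any EC library, or replicate 1 or 2 of EN. Plxna2 and Plxna3, receptors of class 3 and class 6 ligands, did not pass, with log2 changes of 0.03 (95% interval -0.10 to 0.15) and 0.08 (-0.06 to 0.22). Plxna3 had 9.18, 9.16 and 8.75 FPKM in EN replicates 1 to 3, and 8.55, 8.08 and 8.94 FPKM in EC replicates 1 to 3, with overlap. Plxna4a, the fourth A-type model, had 7 reads in EN and 7 in EC.

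Plxnb1, a receptor for Sema4D that acts on RhoA through PDZ-domain exchange factors (ENSRNOG00000029510, chromosome 8, 117836701 to 117856689, plus strand), had 6.17, 6.07 and 6.77 FPKM in EN replicates 1 to 3. In EC replicates 1 to 3 it had 8.06, 7.61 and 7.55 FPKM. The groups did not overlap, and the log2 change was -0.25 (limma adjusted p = 0.047, SE 0.066). That call is close to the threshold, since the adjusted p was 0.097 to 0.148 on removing any EC library, or replicate 1 or 2 of EN. It was also 0.051 on the TPM scale, 0.051 with quantile normalization and 0.0995 with no filter on low values.

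Plxnb3, a B-type plexin that binds Sema5A (ENSRNOG00000061731, chromosome X, 157015305 to 157028434, minus strand), met the minimum of 1 FPKM through EC, where its mean was 1.48 FPKM, against 0.712 in EN. It had 0.731, 0.642 and 0.762 FPKM in EN replicates 1 to 3, from 76, 76 and 75 reads. In EC replicates 1 to 3 it had 1.36, 1.59 and 1.48 FPKM, from 125, 143 and 142 reads. The EC libraries were all above the EN libraries, although they are shallower. The log2 change was -0.53 (limma adjusted p = 0.042, SE 0.13) with the pseudocount of 1, which shrinks differences at levels this low. With limma voom on the whole reads it was -1.06 (SE 0.14, adjusted p = 0.0011). On removing any 1 library the limma adjusted p was 0.058 to 0.140, and with a pseudocount of 0.1 it was 0.052. The most abundant plexin, Plxnb2, had 72.7, 74.9 and 81.8 FPKM in EN replicates 1 to 3 and 75.9, 77.1 and 77.9 FPKM in EC replicates 1 to 3. Its groups overlapped and the log2 change was -0.01 (95% interval -0.13 to 0.10), turning to 0.0044 on the TPM scale. Plxnd1, the receptor of Sema3E on endothelial cells, was at 6.51 ± 0.385 FPKM in EN and 6.54 ± 0.751 in EC (SD, n = 3 each). Plxnc1 had 27 reads in EN and 32 in EC, which left it under the minimum.

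**Figure D3:**
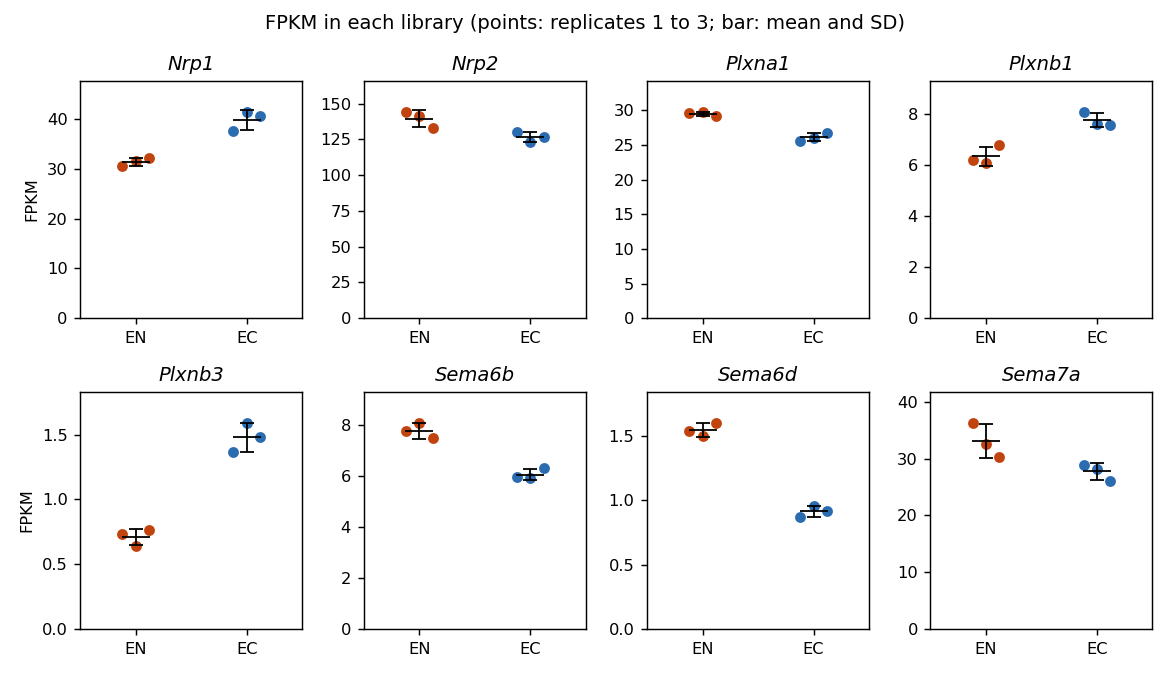
FPKM in each EN and EC library for the 5 members past the test and for Nrp2, Sema6d and Sema7a, the 3 next by adjusted p, with the mean and SD of each group and each axis starting at 0. The groups do not overlap in any of the 8 panels, and EN is lower in Nrp1, Plxnb1 and Plxnb3.

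Groups that do not overlap were common: they were found for 9 of the 20 tested members (45%), against 37.9% of all genes tested, so the separation alone says little of a gene. Among members at the minimum in both groups they were found for 7 of 17 (41.2%, against 38.2% of such genes). Of the 9, EN was higher in 5 and lower in 4, against 18.6% and 19.4% of all genes tested.

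Class 6 semaphorins, membrane-bound ligands for A-type plexins, held the ligand gene past the test. Sema6b (ENSRNOG00000045998, chromosome 9, 10941613 to 10951252, plus strand) had 7.78, 8.11 and 7.49 FPKM in EN replicates 1 to 3, against 5.97, 5.92 and 6.31 FPKM in EC replicates 1 to 3. EN was above EC without overlap, by 0.32 on the log2 scale (limma adjusted p = 0.022, SE 0.062). The adjusted p was 0.068 to 0.0895 on removing replicate 2 or 3 of EC, or replicate 1 or 2 of EN, and with no filter on low values it was 0.053. Sema6d, which binds Plxna1 (ENSRNOG00000004812, chromosome 3, 116899878 to 116958050, plus strand), had 1.54, 1.495 and 1.60 FPKM in EN replicates 1 to 3, from 166, 184 and 164 reads. In EC replicates 1 to 3 it had 0.872, 0.954 and 0.914 FPKM, from 83, 89 and 91 reads. The EN libraries were all above the EC libraries, and the ratio of mean FPKM was 1.69. The log2 change of 0.41 (95% interval 0.12 to 0.70) did not pass (limma adjusted p = 0.067), while with limma voom on the whole reads it was 0.75 (SE 0.12, adjusted p = 0.0030). It too met the minimum through 1 group, here EN, with a mean of 1.54 FPKM against 0.913 in EC.

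Sema6a, the most abundant ligand of the class, had 46.0, 46.8 and 51.1 FPKM in EN replicates 1 to 3, against 51.4, 51.8 and 53.0 FPKM in EC replicates 1 to 3. EN was below EC without overlap, but EN replicate 3 came close to EC replicate 1. The log2 change was -0.12 (95% interval -0.23 to -0.0023, limma adjusted p = 0.148), and the adjusted p was 0.037 without EN replicate 3. Sema6c had 98 reads in EN and 69 in EC and was not tested. The ratio of Sema6a to Sema6b, chosen after the values were seen, was 5.91, 5.77 and 6.83 in EN replicates 1 to 3 and 8.61, 8.74 and 8.40 in EC replicates 1 to 3.

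Sema7a (ENSRNOG00000007687, chromosome 8, 62723788 to 62745868, plus strand) had 36.3, 32.6 and 30.4 FPKM in EN replicates 1 to 3, against 29.0, 28.2 and 26.1 FPKM in EC replicates 1 to 3. EN was higher without overlap, EN replicate 3 being the nearest to the EC range. Its log2 change of 0.24 (95% interval 0.07 to 0.42) did not pass (limma adjusted p = 0.068). The adjusted p was 0.030 with limma voom on the whole reads, 0.049 with a minimum of 5 FPKM and 0.037 without EN replicate 3. Plxnc1, its plexin receptor, was nearly unread, while Itgb1 and Itga1, which encode the subunits of its integrin receptor, averaged 332 ± 10.6 FPKM and 95.6 ± 8.37 FPKM in EN, against 361 ± 7.38 and 112.8 ± 6.04 FPKM in EC (SD, n = 3 each). Neither integrin gene passed (limma adjusted p = 0.074 for Itgb1 and 0.065 for Itga1).

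**Figure D4:**
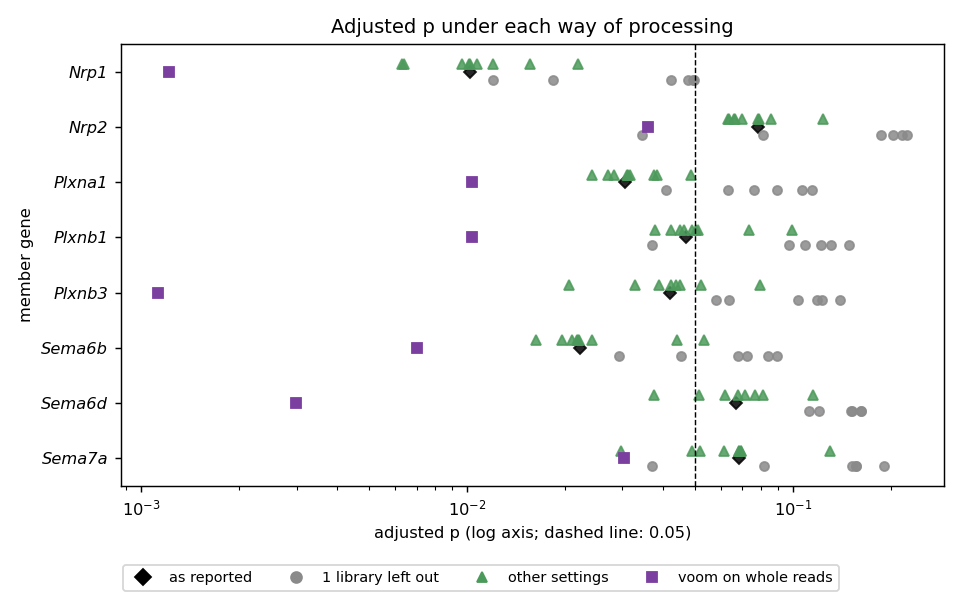
Limma adjusted p, on a log axis, of 8 member genes as reported, with 1 library left out, under the other settings and with voom on whole reads, with the threshold of 0.05 dashed. Every point of Nrp1 lies under 0.05, while the other 7 genes have points on both sides of it.

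Among secreted class 3 ligands, which include the highest semaphorins, Sema3c and Sema3a, none of the 4 tested passed. Sema3c had 134, 144 and 153 FPKM in EN replicates 1 to 3 and 149.6, 153 and 153 FPKM in EC replicates 1 to 3. Only EN replicate 1 and EN replicate 2 lay below the EC range, and the log2 change was -0.08 (95% interval -0.20 to 0.04). Sema3a had 67.4, 67.2 and 71.7 FPKM in EN replicates 1 to 3 and 69.3, 72.9 and 73.5 FPKM in EC replicates 1 to 3, with overlap. Its log2 change was -0.06 (95% interval -0.17 to 0.04). Sema3b and Sema3f, paralogous neighbours that both use neuropilins, had log2 changes of -0.05 (95% interval -0.26 to 0.16) and 0.08 (-0.16 to 0.32). Sema3d had 12 reads in EN and 3 in EC, Sema3g 5 in EN and 6 in EC, and Sema3e none in EN, which allows at most 0.011 FPKM (3 reads over the group), and 1 in EC. These limits cover counting error only.

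Class 4 ligands, which signal mainly through B-type plexins, did not pass either. Sema4c, a ligand of Plxnb2, was at 22.6 ± 2.22 FPKM in EN and 20.7 ± 1.30 in EC (SD, n = 3 each). Sema4b was at 8.75 ± 0.267 FPKM in EN and 8.21 ± 0.388 in EC, and Sema4a at 0.986 ± 0.210 FPKM in EN and 1.19 ± 0.235 in EC, where Sema4a met the minimum through EC alone. Sema4d, the ligand of Plxnb1, had 11 reads in EN and 4 in EC. Sema4g was not tested, and it had 129 reads in EN and 73 in EC, or 0.548 ± 0.077 FPKM in EN and 0.360 ± 0.075 in EC (SD, n = 3 each). Without the filter its limma adjusted p was 0.205. Sema4f had 4 reads in EN and 3 in EC. The class 5 ligands Sema5a, a ligand of Plxnb3, and Sema5b had 4 and 0 reads in EN and 1 and 1 in EC, so a difference was not detectable at this depth. For Sema5b the count of 0 in EN allows at most 0.017 FPKM (3 reads over the group).

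The promoter windows of 4 receptor genes are printed because Nrp1, Plxnb1 and Plxnb3 were past the test and lower in EN, with the other neuropilin, Nrp2, beside Nrp1. Each holds 250 bases before and 50 after the start of the RefSeq gene, 5′ to 3′ on the gene's strand, on the GRCr8 build, which is not the build of the deposited coordinates. Plxnb3 is on the plus strand in GRCr8 and on the minus strand in the deposited coordinates. Capitals mark GGGCGG or its reverse complement, the GC box.
Nrp1, chr19:73256307-73256606, plus strand: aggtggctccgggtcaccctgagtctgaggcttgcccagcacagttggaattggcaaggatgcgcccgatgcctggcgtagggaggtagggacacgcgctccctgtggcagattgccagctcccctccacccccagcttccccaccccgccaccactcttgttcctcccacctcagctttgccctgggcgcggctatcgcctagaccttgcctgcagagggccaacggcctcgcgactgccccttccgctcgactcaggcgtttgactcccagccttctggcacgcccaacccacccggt
Nrp2, chr9:71617004-71617303, plus strand: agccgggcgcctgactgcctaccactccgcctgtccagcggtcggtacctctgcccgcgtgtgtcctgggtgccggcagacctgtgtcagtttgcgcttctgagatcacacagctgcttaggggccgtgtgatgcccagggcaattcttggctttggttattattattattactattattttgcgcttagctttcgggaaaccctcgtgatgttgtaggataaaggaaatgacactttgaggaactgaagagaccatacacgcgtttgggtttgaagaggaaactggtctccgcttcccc
Plxnb1, chr8:118622911-118623210, plus strand: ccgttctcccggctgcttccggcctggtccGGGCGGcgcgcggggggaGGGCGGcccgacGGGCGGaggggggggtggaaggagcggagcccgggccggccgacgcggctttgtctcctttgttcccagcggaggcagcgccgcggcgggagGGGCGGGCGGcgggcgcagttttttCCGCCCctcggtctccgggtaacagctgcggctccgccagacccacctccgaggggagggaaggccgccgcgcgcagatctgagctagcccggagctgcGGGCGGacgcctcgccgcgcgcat
Plxnb3, chrX:156646624-156646923, plus strand: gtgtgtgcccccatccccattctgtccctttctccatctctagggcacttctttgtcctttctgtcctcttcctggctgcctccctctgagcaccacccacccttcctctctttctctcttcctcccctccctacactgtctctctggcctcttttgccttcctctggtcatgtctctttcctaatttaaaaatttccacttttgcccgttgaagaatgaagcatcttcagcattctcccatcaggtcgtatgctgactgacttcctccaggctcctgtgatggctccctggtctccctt
Windows of 300 bases were given for 23 of the 31 members. Sema3a, Sema3b, Sema3f, Sema4d, Sema4g, Sema5a, Plxna1 and Plxna4a are named only. The Plxnb1 window held 7 GC boxes, counting overlapping matches, with 77.3% G and C and 45 CpG pairs, while that of Plxnb3 held none, with 52% G and C and 2 CpG pairs. Neither neuropilin window held a GC box, and they had 66.3% (Nrp1) and 53% (Nrp2) G and C. Over both strands, GGGCGG was in 13 of 23 member windows (56.5%) and in 33.1% of all 33469 RefSeq windows of this length. The E-box CACGTG was in 2 of 23 (8.70%), against 6.42% of all windows. The EGR-type GCGNGGGCG, which can overlap a GC box, was in 4 of 23 (17.4%), against 4.98%. The AP-1 letters TGANTCA and the TATA box letters TATAAA were in 0 of 23, against 7.33% and 14.2% of all windows. Members' windows were also richer in G and C, with a median of 61%, against 51.7% over all windows. Every member is protein-coding, while the set of all windows was not filtered for this, so the 2 sets may differ in gene type. A match is a run of letters and was not measured as binding.

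Genes that work with the family were read from lists of co-receptors, other neuropilin ligands and processing enzymes (14 of 23 tested) and of plexin effectors (33 of 37 tested). In the first list 2 genes were higher and none lower, leaving 12 that did not pass (14.3% past the test, against 14.4% of all genes tested). Furin, the protease that cleaves class 3 semaphorins, was at 46.8 ± 1.19 FPKM in EN and 39.3 ± 2.03 in EC (SD, n = 3 each; log2 change 0.25, limma adjusted p = 0.022). Gipc1, which binds the tail of neuropilin-1, was at 86.2 ± 2.14 FPKM in EN and 73.5 ± 4.39 in EC (log2 change 0.23, adjusted p = 0.031). Both list medians were near 0, at -0.0011 for the first and -0.04 for the effectors, against -0.0028 over all genes tested.

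Among plexin effectors, 6 genes were lower and 1 higher, with 26 not past the test. The share past it was 21.2%, against 14.4% of all genes tested (7.14% lower and 7.24% higher). Rnd3, a small GTPase that opposes RhoA signalling, was at 49.0 ± 2.34 FPKM in EN and 60.8 ± 2.01 in EC (SD, n = 3 each; log2 change -0.31, limma adjusted p = 0.013). Rock1 and Rock2, the kinases that RhoA activates, had log2 changes of -0.21 and -0.33 (limma adjusted p = 0.0499 and 0.020), Rock1 being named after its value was seen. Rap1a, a Ras-type GTPase of the kind plexins inactivate, fell by 0.27, Ranbp9, a scaffold that binds Plxna1, by 0.35 and Crmp1, a collapsin response mediator, by 0.14 on the log2 scale (limma adjusted p of 0.017, 0.020 and 0.049). Mical3, of the actin-oxidizing MICAL family, rose by 0.24 (limma adjusted p = 0.041). None of these 9 genes of both lists held its call on every removal of 1 library, and the highest limma adjusted p of each was 0.059 to 0.164. By limma, 7 genes of the lists passed on removing EC replicate 1, 14 on removing EN replicate 3 and at most 1 on removing any other library (EC replicate 2 or 3, or EN replicate 1 or 2).

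**Figure D5:**
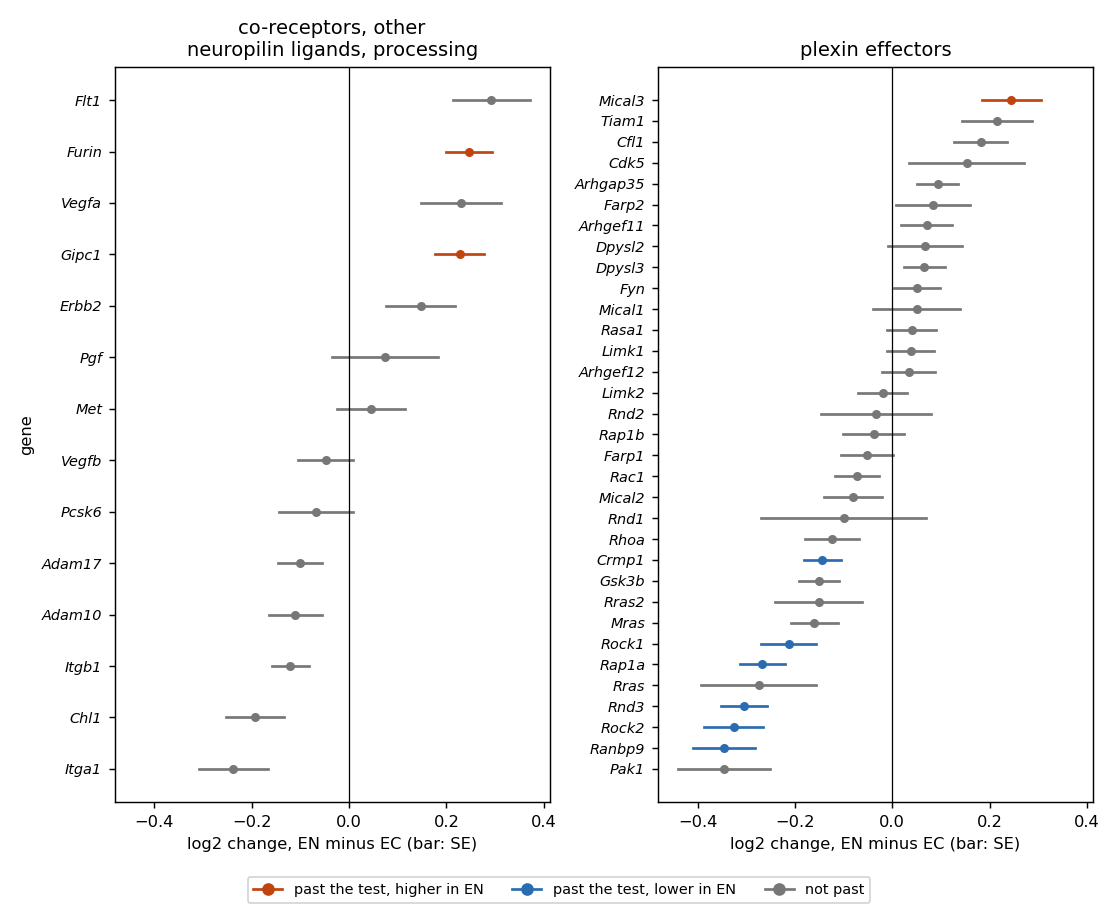
Log2 change, EN minus EC, with SE, of 14 tested genes of co-receptors, other neuropilin ligands and processing enzymes and of 33 tested plexin effectors. Furin, Gipc1 and Mical3 are past the test and higher in EN, and 6 effectors, with Ranbp9 at -0.35, are past it and lower.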

How the data were processed

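Libraries labelled PC12 were made from 1 ug of total RNA with an Illumina TruSeq RNA kit, per the labels' protocols. The authors deposited 1 table of FPKM with gene models, lengths and biotypes. HISAT2 2.0.5 and the Rnor_6.0 build are named per the submitters' processing notes. The sources used here name no counting tool, annotation release, strand setting or filter. Multiplied by gene length, 100% of a library's non-zero FPKM values were whole multiples of a single unit, to within 0.001, which gave the reads.

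Two-sided tests used limma 3.58.1 (R 4.3.3), with the trend option and a group term, on log2(FPKM + 1) of the 12198 genes whose mean over all libraries reached 1 FPKM. A simulation of EN against EC changed 200 genes of at least 5 FPKM among the 12198. Of genes changed 1.25-fold 56.1% were recovered, of those changed 1.5-fold 98.6%, and 4.92% of calls were false. Simulated reads were drawn independently, with the median spread of genes of like level and no deviation shared within a library. The rates may therefore be better than those in these libraries. Genes given in every library were the members past the test, the next 5 by adjusted p and the 3 highest semaphorins and plexins and both neuropilins. Of the pathway lists, up to 8 genes past the test were named. The members and lists were chosen with earlier results of these data known. Alternatives were other pseudocounts, filters and scalings, a replicate block, each library left out, voom on whole reads and protein-coding models alone. No 2 libraries were identical or alike within sampling noise (chi-square of reads over degrees of freedom at least 3.99). The check for outlying samples needs 4 samples a group and was not made. The tables hold no column of other samples. Values of some marker genes are not reported here.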

Additional observations from a re-analysis of the deposited data

How the results depend on the processing

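The number of members past the test was 5. It was 3 with no filter on low values, 8 with voom on whole reads (5 higher and 3 lower, against 19.4% of all genes tested), 4 to 6 under the other 8 settings, and 1 to 7 with 1 library left out. Of the 12198 genes tested 1754 passed. With no filter 866 of 20495 genes passed, and 31 members were tested in place of 20. With 1 library left out 338 to 2059 of the 12198 passed. Without EN replicate 1, 39.7% of those past the test were higher, against 50.3%. For co-receptor and effector genes the number was 9, with 5 under no filter, 18 with voom and 0 to 14 with 1 library left out (in the 3 fits with 0, limma gave 17 to 19 at an unadjusted p under 0.05). The cause was not tested, though leaving out a library also leaves fewer samples to the fit. Scaling moved the median log2 change of all genes to at most 0.012. Directions reversed only near 0, in members not past the test: Plxnb2 at 0.0044 and Plxnd1 at 0.012 on the TPM scale, Plxnd1 at 0.00083 with median centring, and, with 1 library left out, Plxnb2 at -0.060 to 0.023, Sema3b at -0.102 to 0.020 and Plxnd1 at -0.063 to 0.076. Same-numbered samples did not deviate together (correlations of 0.088, -0.095 and -0.020 over genes tested, against -0.111 to 0.134 for other-numbered ones). The numbers thus gave no sign of a pairing, which so few correlations cannot exclude. With the replicate block 4 members passed (Plxnb1 at an adjusted p of 0.073 and Plxnb3 at 0.079 no longer, Sema7a at 0.0298 in addition), 13 co-receptor and effector genes, and 1907 genes in all. Members under 1 FPKM rest on at most 129 reads a group, and depth limits what they can show.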
